A study of Mus musculus with 12 samples.

Results

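Smooth muscle contractile genes were followed across cultures of mouse liver cells that the labels call HSCs, read here as hepatic stellate cells because the labels do not spell the abbreviation out. The 10 genes, taken by symbol from a table of 53452 genes, were the actins Acta2 and Actg2, the transgelins Tagln and Tagln2, the myosin genes Myl9 and Myh11, the calponins Cnn1 and Cnn2, and the tropomyosins Tpm1 and Tpm2. All 10 were found, and all 10 passed the filter on low counts that left 16036 tested genes.

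Cells came from wild-type mice, and the sources used here give neither their ages nor any engineered allele. The medium of the cultures was changed 12 h after isolation, and cells were collected 24 h after that change in every group. The cells then had riociguat, which stimulates soluble guanylate cyclase, during the final 6, 12 or 24 h, or the solvent DMSO during the final 12 h as control. Each of the 4 groups has 3 libraries, and nothing in the labels says that they came from separate animals or isolations, so p-values here reflect the spread between libraries, which could be technical alone. The sources used here give no dose. Counted from the medium change, compound or solvent was added at 18 h for the 6 h exposure, at 12 h for both 12 h exposures and at once for the 24 h exposure, so exposure time and the stage of culture at addition cannot be told apart.

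Stellate cells are the pericytes of the liver sinusoid. In culture or in injured liver they become contractile myofibroblasts, and a rise of alpha smooth muscle actin is the usual sign of that activation. The contractile apparatus is built from actin filaments, myosin motors with their light chains, and proteins that lie along the filament, such as calponins, transgelins and tropomyosins. Many of these genes are known targets of serum response factor (SRF), which binds the CArG box and works with myocardin-related cofactors that respond to the state of actin. Soluble guanylate cyclase makes cGMP, which relaxes smooth muscle through cGMP-dependent protein kinase.

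Promoter sequence was available for 7 of the 10 genes in a RefSeq table of the GRCm38.p6 build. Actg2, Tagln and Myh11 had no entry. The 250 bases before each RefSeq start were searched on both strands for the CArG box, a run of A and T bases between CC and GG, because the genes that moved together include known SRF targets. An exact box stood before Myl9 and Cnn2, that is before 2 of 7 genes, against 378 of 27025 promoters of the same length (1.4%). A box with at most 1 G or C inside its core, a looser form added after the promoters had been read, was found in the window of Acta2 as well, giving 3 of 7 genes against 8.65% of all promoters. The RefSeq start used for Acta2 lies inside the gene as GENCODE annotates it, so 217 of the 250 bases of its window, both of its boxes included, fall in annotated exons and not before the gene's outer start. The boxes of Myl9 and Cnn2 lie before the gene in both annotations. The 5 sites with their flanks follow, 5′ to 3′ on the strand of the gene, with the box in capitals.

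Acta2, 84 bases before the RefSeq start, chr19:34255438-34255467, minus strand, 1 G or C in the core: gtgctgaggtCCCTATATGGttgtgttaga
Acta2, 34 bases before the RefSeq start, chr19:34255388-34255417, minus strand, 1 G or C in the core: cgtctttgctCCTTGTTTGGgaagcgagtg
Myl9, 161 bases before the RefSeq start, chr2:156775293-156775322, plus strand, exact: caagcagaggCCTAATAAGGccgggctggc
Myl9, 99 bases before the RefSeq start, chr2:156775355-156775384, plus strand, 1 G or C in the core: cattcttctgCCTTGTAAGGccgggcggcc
Cnn2, 56 bases before the RefSeq start, chr10:79988534-79988563, plus strand, exact: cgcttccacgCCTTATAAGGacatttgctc

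Acta2 and Myl9 each held a pair of boxes and Cnn2 held 1. The letters CATTCC, which TEAD factors are known to bind, were found on either strand in the same window of Acta2, Tagln2 and Tpm1, that is in 3 of 7 genes against 12.6% of all promoters. Of these windows, 217 bases for Acta2, 199 for Tagln2 and 193 for Tpm1 fall in annotated exons. Only 33, 51 and 57 bases lie before the first annotated exon, and no CATTCC match lay wholly within them. These matches describe letters in a window and were not tests of binding.

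Library totals ran from 12953096 to 27358893 counts. Libraries of one group differed by more than sampling noise (chi-square per degree of freedom from 4.08 to 16.03), most of all DMSO replicate 1 against the other DMSO libraries. That library was the lowest of the DMSO libraries for 7 of the 10 genes and the highest for 0. The 11 stellate markers were all detected. They summed to between 2419 and 2473 CPM (counts scaled to a common library total) in DMSO and between 2676 and 2790 CPM at 24 h. Reln made up most of this sum, at a mean of 1367 CPM in DMSO and 1665 CPM at 24 h. By edgeR's quasi-likelihood test (adjusted p under 0.05), 5 of the markers rose at 24 h and 2, Des and Pdgfrb, fell. Among all tested genes 5.94% rose and 7.41% fell. Markers of hepatocytes (1167 to 1224 CPM in DMSO) and endothelial cells (1561 to 1681 CPM) were present too, so the RNA was not of stellate cells alone. In such bulk RNA, fewer cells of a type and less RNA per cell cannot be told apart.

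The level of the genes in DMSO spanned orders of magnitude when scaled to exon length. Tagln2, the transgelin that is not restricted to muscle, stood highest at 571 CPM per kb of exon, with libraries from 553 to 581. Tagln at 276 and Acta2 at 220.4 CPM per kb came next, and their libraries overlapped. Cnn2 at 152 and Tpm1 at 149.5 CPM per kb also overlapped, and the exon length of Tpm1 sums many alternative exons, which lowers its value on this scale. Myl9 followed at 61.0 CPM per kb, Tpm2 at 15.4, Myh11 at 5.74, Actg2 at 1.56 and Cnn1 at 0.232. After 12 h of riociguat the upper part of this order had changed. Tagln2 remained highest at 609.6 CPM per kb, Tpm1 was second at 132, and Tagln, at 94.2, and Acta2, at 57.5, both stood below it, with no overlap between the libraries of either gene and those of Tpm1.

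**Figure D1:**
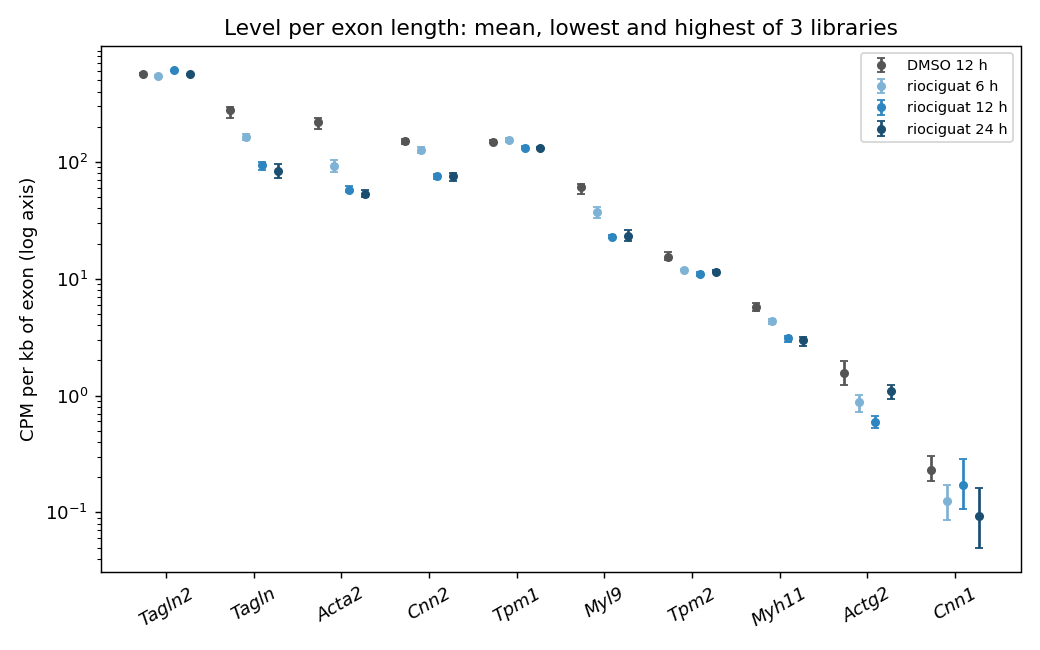
Level of each gene per kb of exon (log axis) in the 4 groups; points are means and bars run from the lowest to the highest of 3 libraries. Tagln2 stays near the top in every group, while Tagln and Acta2 drop from above Tpm1 in DMSO to below it after 12 h of riociguat.

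After 12 h of riociguat, compared with DMSO for the same time, the contractile genes were lower. In edgeR's quasi-likelihood test with Benjamini-Hochberg adjustment over all tested genes, 8 of the 10 fell, 0 rose and 2 were not called. Among all tested genes 3.48% fell and 2.18% rose. At an unadjusted p under 0.05 the test gave 8 lower and 1 higher, and DESeq2 called 7 lower and 1 higher. The median log2 fold change was -0.94 for the 10 genes and 0.00 for all tested genes. The libraries of the groups did not overlap for 9 genes, of which 8 were lower with riociguat and 1, Tagln2, was higher. Among all tested genes 11.9% were lower and 10.5% higher without overlap. In order of size, the fitted changes of the called genes ran from Acta2 through Tagln, Myl9, Actg2, Cnn2, Myh11 and Tpm2 to Tpm1.

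Acta2 encodes alpha smooth muscle actin and lies on chromosome 19, 34241090 to 34255590, minus strand (ENSMUSG00000035783, GRCm38). Its DMSO libraries held 418, 525 and 508 CPM. With riociguat they held 227, 178 and 197 CPM at 6 h, 122, 120.4 and 136 CPM at 12 h, and 112, 109.9 and 125 CPM at 24 h. Every riociguat library lay below every DMSO library, and every library of the later times lay below every 6 h library. The mean was 41.5% of the DMSO mean at 6 h, 26.1% at 12 h and 23.9% at 24 h. Among the 16036 tested genes the fitted change of Acta2 ranked 26 from the lowest at 12 h and 33 from the lowest at 24 h.

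Actg2 encodes gamma smooth muscle actin, the actin of enteric muscle (ENSMUSG00000059430, chromosome 6, 83512905 to 83536265, minus strand). Its level was low, at 2.25, 1.94 and 3.1 CPM in DMSO, and its libraries held only 18 to 64 counts. The 12 h libraries held 0.92, 0.825 and 1.04 CPM, all below DMSO, and the log2 fold change was -1.38 ± 0.30 (SE; edgeR's quasi-likelihood test, adjusted p = 0.00761). With DMSO replicate 3 left out the adjusted p was 0.0614, and with replicate 2 of the 12 h group left out it was 0.0555, so either library decides this call (edgeR). At 24 h the libraries stood at 1.45, 1.72 and 1.93 CPM, with all 3 above the 12 h libraries and all 3 below the DMSO libraries, and neither difference was called (adjusted p = 0.161 and 0.268). Actins share much of their coding sequence, so counts of this gene depend on how the authors' counting divided shared reads.

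Tagln encodes transgelin, an actin cross-linking protein of smooth muscle also known as SM22-alpha (ENSMUSG00000032085, chromosome 9, 45929619 to 45936058, minus strand). It was at 473, 591 and 581 CPM in DMSO, at 342, 304 and 318 CPM at 6 h, at 197, 170.1 and 194 CPM at 12 h, and at 165, 144 and 192 CPM at 24 h. The groups did not overlap except for the last 2, which spanned much the same range. Its mean was 58.5% of the DMSO mean at 6 h, 34.1% at 12 h and 30.5% at 24 h.

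Tagln2, its widely expressed relative (ENSMUSG00000026547, chromosome 1, 172500047 to 172507380, plus strand), did not follow it. It was at 1152, 1210 and 1203 CPM in DMSO and at 1281, 1262 and 1264 CPM at 12 h. The 12 h libraries were thus all higher than DMSO, but the log2 fold change of 0.09 ± 0.04 (SE) was not called by edgeR's quasi-likelihood test (adjusted p = 0.173), while DESeq2 called it (adjusted p = 0.0241). At 6 h Tagln2 was at 1131 ± 27.8 CPM and at 24 h at 1175 ± 15.3 CPM (SD, n = 3), and both groups overlapped DMSO.

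Myl9 encodes the regulatory light chain of smooth muscle myosin, whose phosphorylation drives contraction (ENSMUSG00000067818, chromosome 2, 156775420 to 156781658, plus strand). Its libraries held 61.3, 75.9 and 75.6 CPM in DMSO and 27.5, 25.8 and 25.9 CPM at 12 h. The 6 h libraries, at 47.8, 43.0 and 38.7 CPM, stood between these groups and overlapped neither. The log2 fold change at 12 h was -1.43 ± 0.10 (SE; edgeR's quasi-likelihood test, adjusted p = 4.36e-08). Myh11 encodes the heavy chain of smooth muscle myosin, a marker of mature smooth muscle (ENSMUSG00000018830, chromosome 16, 14194535 to 14291372, minus strand). It moved less, from 40.5, 47.6 and 42.8 CPM in DMSO to 34.1, 31.3 and 34.3 CPM at 6 h and 24.1, 22 and 24.6 CPM at 12 h, again with no overlap. Its fall at 12 h was by 0.89 ± 0.09 on the log2 scale (SE; adjusted p = 2.13e-06, edgeR).

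Calponins bind actin and restrain the myosin motor. Cnn1, the calponin of differentiated smooth muscle (ENSMUSG00000001349, chromosome 9, 22099216 to 22109630, plus strand), was close to the limit of detection, with 3 to 17 counts per library. It was at 0.574, 0.506 and 0.823 CPM in DMSO and at 0.339, 0.289 and 0.79 CPM at 12 h, which overlapped, and no comparison called it. Its SE at 12 h was 0.55 on the log2 scale, so a change as large as that of Myh11 was not detectable at this depth. Cnn2, the calponin of non-muscle and smooth muscle cells (ENSMUSG00000004665, chromosome 10, 79988584 to 79996062, plus strand), was far more abundant. Its libraries held 349, 387 and 387 CPM in DMSO, 331, 292 and 302 CPM at 6 h, 190.4, 177 and 196 CPM at 12 h and 187, 169 and 198 CPM at 24 h. The mean was 82.5% of DMSO at 6 h and 50.1% at 12 h, so most of its fall lay between those exposures.

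Tropomyosins lie along actin filaments and control the access of myosin. Tpm1 (ENSMUSG00000032366, chromosome 9, 67022590 to 67049406, minus strand) was among the most abundant of the 10 genes and one of the least changed. It was at 931, 997 and 981 CPM in DMSO, at 1043, 1012 and 961 CPM at 6 h, at 888, 854 and 831 CPM at 12 h and at 870.0, 831 and 870.4 CPM at 24 h. The 6 h libraries overlapped DMSO and the later ones lay below it. The fall of 0.18 ± 0.04 at 12 h (SE; edgeR's quasi-likelihood test, adjusted p = 0.0193) was lost without any 1 of DMSO replicates 2 and 3 and 12 h replicates 2 and 3, with adjusted p between 0.104 and 0.129. Tpm2 (ENSMUSG00000028464, chromosome 4, 43514711 to 43523765, minus strand), at 43.1, 49.4 and 41.9 CPM in DMSO, had most of its decline by the shortest exposure, with 35.5, 34.2 and 34.3 CPM at 6 h and 31.6, 33.1 and 30.6 CPM at 12 h. Tpm1 gives muscle and non-muscle proteins by alternative splicing, which gene-level counts do not separate.

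**Figure D2:**
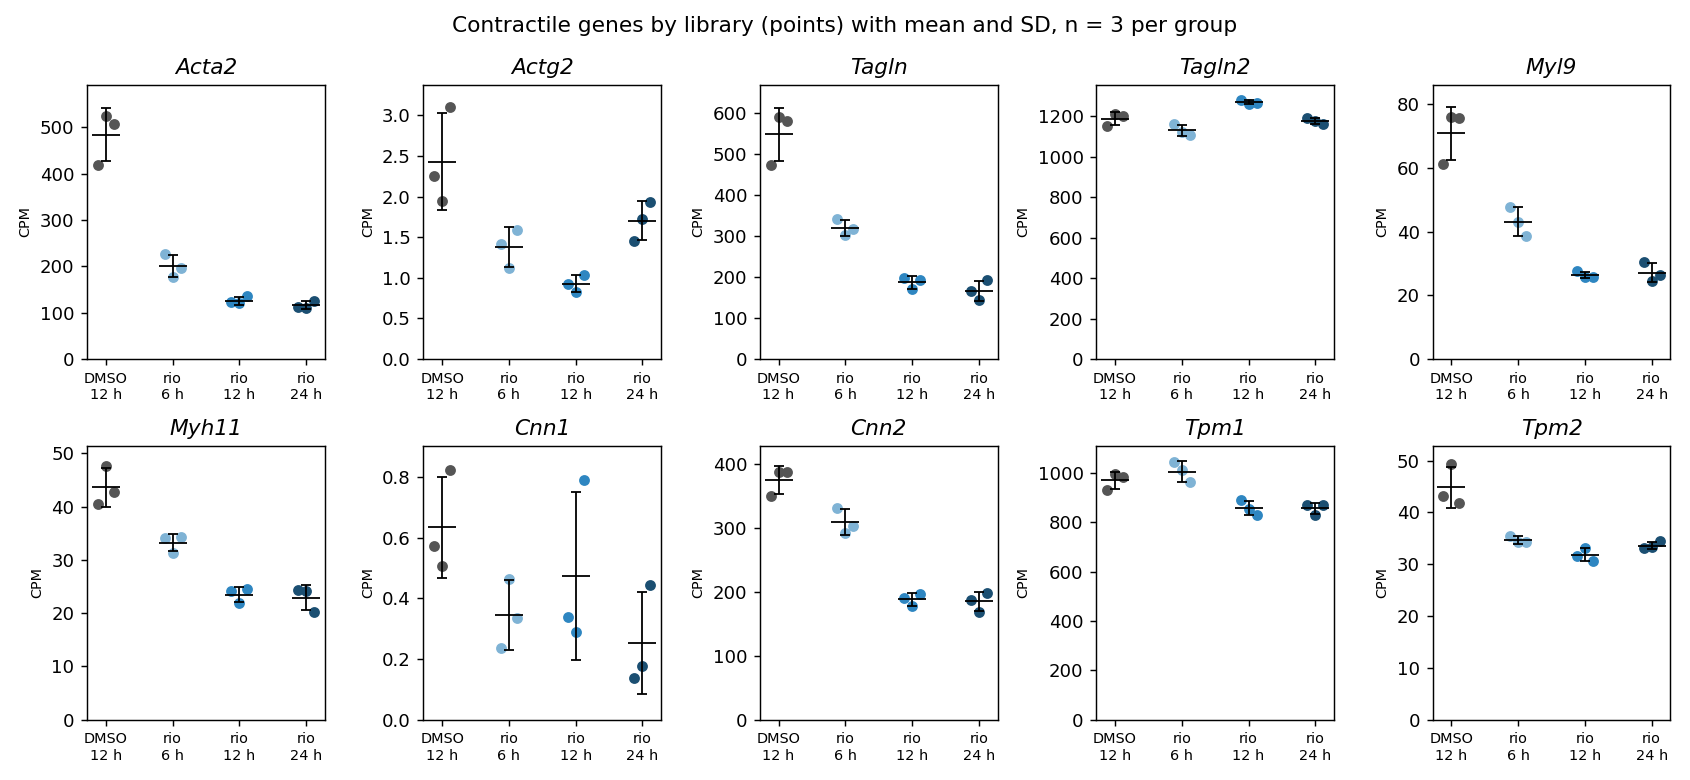
CPM of each contractile gene in every library (points), with the mean and SD of 3 libraries per group; each panel starts at 0 and has its own scale. Acta2, Tagln, Myl9, Cnn2 and Myh11 step down from DMSO to 6 h and again to 12 h, while Tagln2 and Tpm1 stay within a narrow band.

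The 6 h group shows whether these genes differed from DMSO at the shortest exposure. Its controls had been exposed to solvent for 12 h. Riociguat was added 18 h after the medium change and the solvent at 12 h, so exposure time and stage of culture at addition cannot be told apart. Here 6 of the 10 genes fell, 0 rose and 4 were not called by edgeR's quasi-likelihood test, against 5.24% falling and 4.48% rising among all tested genes. At an unadjusted p under 0.05 there were 7 lower and 0 higher, and DESeq2 called 6 lower and 0 higher. Acta2 had the largest fall, by 1.27 ± 0.09 on the log2 scale, followed by Tagln with 0.77 ± 0.09 and Myl9 with 0.72 ± 0.09 (SE, edgeR adjusted p = 5.62e-08, 2.77e-05 and 7.40e-05). Myh11 fell by 0.40 ± 0.08, Tpm2 by 0.37 ± 0.07 and Cnn2 by 0.28 ± 0.06. The Cnn2 call was lost without replicate 2 of the 6 h group (adjusted p = 0.0546). All libraries of 8 genes lay below DMSO, against 13.6% of all tested genes, while 12.1% of all and 0 of the 10 lay above it. The 10 genes together took 3727 ± 224 CPM in DMSO and 3080 ± 125 CPM at 6 h (SD, n = 3).

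After 24 h, compared with the same DMSO libraries, 7 genes fell, 0 rose and 3 were not called, against 7.41% falling and 5.94% rising among all tested genes (edgeR's quasi-likelihood test). Unadjusted p-values under 0.05 gave 8 lower and 0 higher, and DESeq2 called 7 lower and 0 higher. The 7 genes were Acta2, Tagln, Myl9, Myh11, Cnn2, Tpm1 and Tpm2. Their fitted changes ran from -2.06 ± 0.09 for Acta2 to -0.18 ± 0.04 for Tpm1 (SE), and the median of all 10 genes was -0.97 against -0.01 for all tested genes. The Tpm1 call was lost without DMSO replicate 2 or 3 or without replicate 2 of the 24 h group, with adjusted p between 0.0603 and 0.0685. For 9 genes every 24 h library lay below every DMSO library, against 15.7% of all tested genes, while 12.6% of all and 0 of the 10 lay above it. The 3 comparisons with DMSO share their control libraries, so their agreement is not independent evidence.

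**Figure D3:**
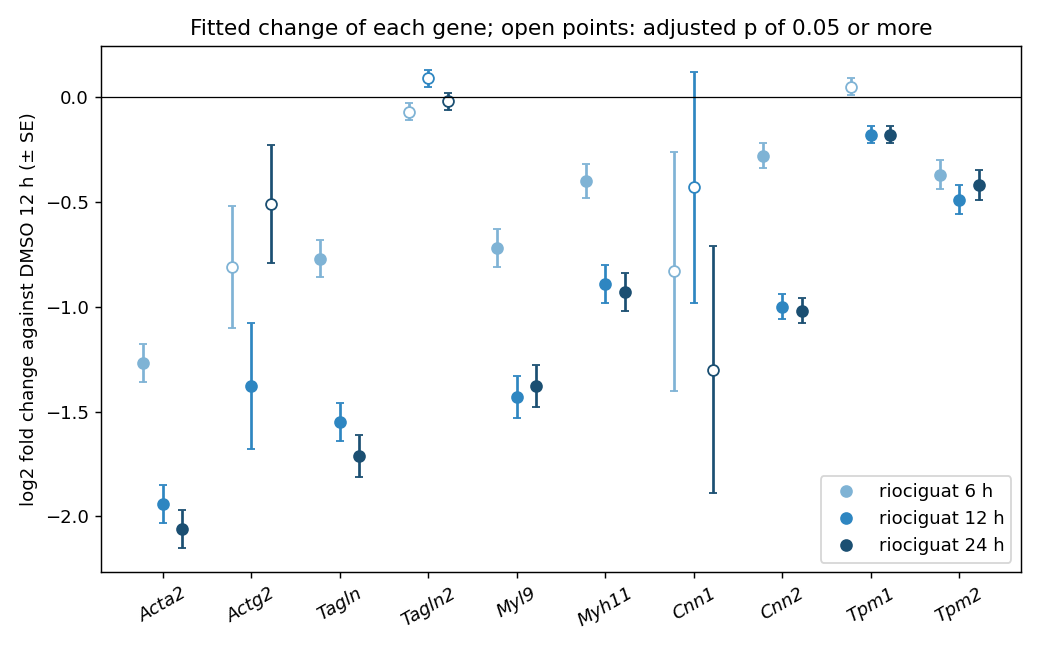
Fitted log2 fold change against DMSO 12 h (± SE, n = 3 per group) of each gene at the 3 exposures; filled points have an adjusted p under 0.05 and open points do not. Acta2 lies lowest among the called genes at every exposure, Tagln2 stays close to 0, and the wide bars of Actg2 and Cnn1 go with their low counts.

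Comparing exposures with each other takes no difference from DMSO, but the DMSO libraries still entered the shared fit and its estimate of the spread. From 6 to 12 h, 6 of the 10 genes fell and 1 rose, against 3.52% falling and 2.57% rising among all tested genes. The fallen genes were Tagln by 0.78 ± 0.09, Cnn2 by 0.72 ± 0.06, Myl9 by 0.70 ± 0.10, Acta2 by 0.67 ± 0.09, Myh11 by 0.50 ± 0.09 and Tpm1 by 0.23 ± 0.04 on the log2 scale (SE; edgeR's quasi-likelihood test, adjusted p from 1.74e-06 for Cnn2 to 0.00298 for Tpm1). Tagln2 rose by 0.17 ± 0.04 (adjusted p = 0.00906, edgeR). Tpm2 changed by -0.12 ± 0.07 and was not called (adjusted p = 0.392). From 12 to 24 h no gene was called by edgeR (adjusted p from 0.126 to 0.998), where 1.71% of all tested genes fell and 1.37% rose. An unadjusted p under 0.05 was reached by 2 genes, Actg2 upwards and Tagln2 downwards. DESeq2 called 1, Tagln2 (adjusted p = 0.0228), and edgeR without a filter on low counts called 1, Tagln, downwards (adjusted p = 0.0496). From 6 to 24 h the same 6 genes as from 6 to 12 h fell, and none rose, against 8.13% falling and 7.16% rising among all tested genes (edgeR; 6 lower and 0 higher both at an unadjusted p under 0.05 and by DESeq2), with Tagln at -0.94 and Cnn2 at -0.74.

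For 6 of 7 pairs, relatives moved by unequal amounts within the same libraries. The log2 ratio of 2 genes, taken in each library after adding 0.5 CPM to both, was compared between the 9 riociguat and the 3 DMSO libraries by an exact two-sided permutation test over libraries, with adjustment over 7 pairs. The smallest p that this design allows is 0.00909, and the 9 libraries differ in exposure. Tagln over Tagln2 was -1.28, -1.03 and -1.05 in DMSO. It was -1.77, -1.88 and -1.80 at 6 h, -2.70, -2.89 and -2.70 at 12 h, and -2.84, -3.02 and -2.59 at 24 h. The mean difference of this ratio was -1.34 (exact permutation p = 0.00909, adjusted 0.0106), with all 9 riociguat libraries below DMSO. The smooth muscle actin moved more than the ubiquitous beta actin: Acta2 over Actb differed by -1.25, with riociguat libraries from -4.91 to -4.44 and DMSO libraries from -3.60 to -3.35. Likewise Myl9 over Myl6, the essential light chain of muscle and non-muscle myosin, differed by -1.02, and Myh11 over Myh9, the heavy chain of non-muscle myosin, by -0.40. Acta2 over Actg2 differed by -1.07 and Tpm1 over Tpm2 by 0.32, the latter higher in every riociguat library. Each of these 6 pairs reached the smallest p. Actg2 was at a mean of only 2.43 CPM in DMSO and 0.928 CPM at 12 h, so the added 0.5 CPM weighs on its ratio. At 12 h Acta2 over Actg2 differed by -0.91, while the fitted changes were -1.94 ± 0.09 for Acta2 and -1.38 ± 0.30 for Actg2 (SE). Cnn1 over Cnn2 differed by 0.34 (exact permutation p = 0.255), a value that became 0.00 when 0.1 CPM was added in place of 0.5. Against DMSO, 3 libraries against 3 cannot go below an exact p of 0.1, so single exposures were not called.

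**Figure D4:**
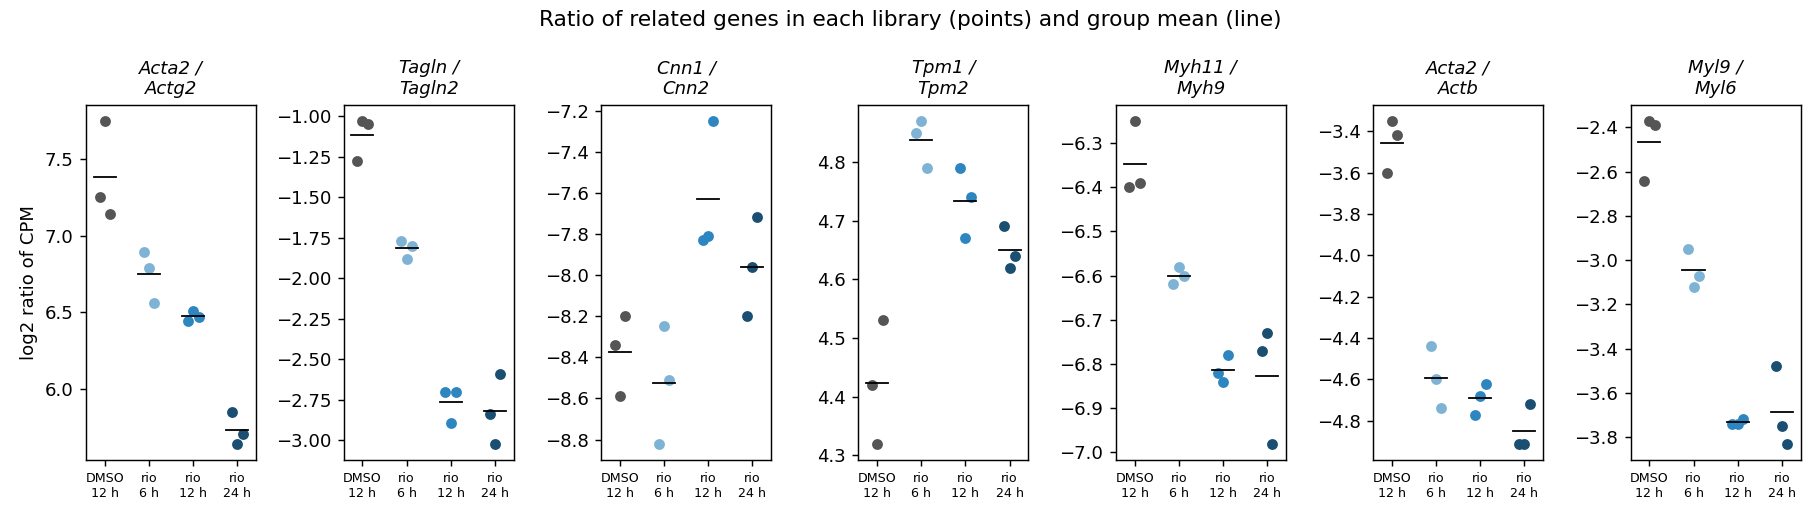
Log2 ratio of CPM of related genes in every library (points) with the group mean (line), 3 libraries per group; each panel has its own axis, which does not start at 0. The ratios of Acta2, Tagln, Myl9 and Myh11 to their relatives are lower in all 9 riociguat libraries than in DMSO, Tpm1 over Tpm2 is higher, and Cnn1 over Cnn2 overlaps.

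The non-muscle and other relatives of these families were described from a list of 16 table entries, of which 14 were tested. At 12 h 7 fell and 0 rose (edgeR's quasi-likelihood test; 10 lower and 0 higher at an unadjusted p under 0.05, and 7 and 0 by DESeq2), against 3.48% falling and 2.18% rising among all tested genes, with a median log2 fold change of -0.22. At 6 h edgeR called 0 of them, against 5.24% falling and 4.48% rising among all tested genes. An unadjusted p under 0.05 gave 7 lower and 0 higher, and DESeq2 called 2 lower and 0 higher. Actb, which encodes beta actin, was at 5300 ± 209.7 CPM in DMSO, 4860 ± 490.0 at 6 h and 3269 ± 155 at 12 h (SD, n = 3). Its change was -0.13 ± 0.06 at 6 h and was not called, and it fell by 0.70 ± 0.06 at 12 h (SE; edgeR adjusted p = 0.205 and 4.96e-07). Gamma actin gene Actg1 stood at 0.01 and -0.57, the non-muscle tropomyosin gene Tpm4 at -0.04 and -0.46, and Myh9 at -0.13 and -0.41 on the same scale, with the first value not called and the second a fall for each. The 6 h values of these named relatives were thus near 0, where the mean of Acta2 was 41.5% of DMSO. Acta2 was the most changed of the contractile genes at 6 h. Others of the 10 were also near 0 there, with Tpm1 at 0.05 and Tagln2 at -0.07, neither called, and Cnn2 fell by only 0.28.

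Other smooth muscle and actin-associated genes were taken from a list of 24, of which 23 were tested. At 12 h 18 fell and 0 rose, with a median of -0.52 (edgeR's quasi-likelihood test; 19 and 0 at an unadjusted p under 0.05, 17 and 0 by DESeq2), against 3.48% and 2.18% of all tested genes. At 6 h 8 fell and 2 rose, against 5.24% and 4.48%. The risen genes were Csrp2, by 0.39 ± 0.08, and Vcl, by 0.16 ± 0.05 on the log2 scale (SE; edgeR adjusted p = 0.00428 and 0.0426). At 12 h Csrp2 was at -0.04, not called, and Vcl fell by 0.47. At 24 h 14 fell and 0 rose (edgeR; 17 and 0 at an unadjusted p under 0.05, 14 and 0 by DESeq2), against 7.41% and 5.94%. Csrp1, a LIM protein of smooth muscle, fell by 0.84 ± 0.06 at 12 h, the zyxin-family gene Lpp by 0.76 ± 0.05 and the filamin gene Flna by 0.56 ± 0.04 on the log2 scale (SE). Mylk, the kinase that phosphorylates the myosin light chain, fell by 0.34 ± 0.06 at 6 h, 0.52 ± 0.06 at 12 h and 0.23 ± 0.06 at 24 h. Des, the muscle intermediate filament gene that also marks rodent stellate cells, fell by 0.45 ± 0.06 at 12 h. Leiomodin gene Lmod1, an actin nucleator of smooth muscle that was chosen for mention after its values were seen, was at 7.31 ± 1.49 CPM in DMSO and 2.30 ± 0.421 CPM at 12 h (SD, n = 3).

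Among 15 genes known to act upstream, 14 were tested, and at 12 h 4 fell and 0 rose (edgeR's quasi-likelihood test; 7 and 0 at an unadjusted p under 0.05, 4 and 0 by DESeq2), against 3.48% and 2.18% of all tested genes. Srf itself was at 112, 131 and 129 CPM in DMSO and at 79.8, 78.3 and 80.5 CPM at 12 h, a fall by 0.64 ± 0.07 on the log2 scale (SE; edgeR adjusted p = 1.57e-05). The genes of its cofactors Mrtfa and Mrtfb, at -0.20 ± 0.08 and -0.08 ± 0.06, were not called at 12 h, and Myocd, the gene of the muscle-specific cofactor myocardin, was too low to be tested, with a mean of 0.293 CPM in DMSO. The LIM cofactor gene Fhl2 fell by 0.57 ± 0.12 at 6 h and 0.81 ± 0.12 at 12 h, and Fhl1 fell by 0.64 ± 0.06 at 12 h. On the cGMP side, Irag1, a substrate of cGMP-dependent kinase that limits calcium release, had an early step, with 50.1, 55.6 and 54.0 CPM in DMSO, 25, 27.5 and 27.5 CPM at 6 h and 25.1, 26.0 and 28.2 CPM at 12 h. Its fall was by 0.99 ± 0.08 at 6 h and 1.01 ± 0.08 at 12 h (SE; edgeR adjusted p = 2.16e-07 and 1.43e-07). Prkg1, the kinase gene itself, rose by 0.43 ± 0.10 at 6 h and 0.33 ± 0.10 at 24 h but was at 0.06 ± 0.10, not called, at 12 h. The cyclase subunit genes Gucy1a1 and Gucy1b1 were at 0.07 ± 0.08 and -0.04 ± 0.06 at 12 h, also not called. At 24 h Gucy1a1 rose, by 0.36 ± 0.08 against DMSO (SE; edgeR adjusted p = 0.00666) and by 0.40 ± 0.08 against 6 h (adjusted p = 0.00236), while Gucy1b1 was not called at 6 or 24 h against DMSO.

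**Figure D5:**
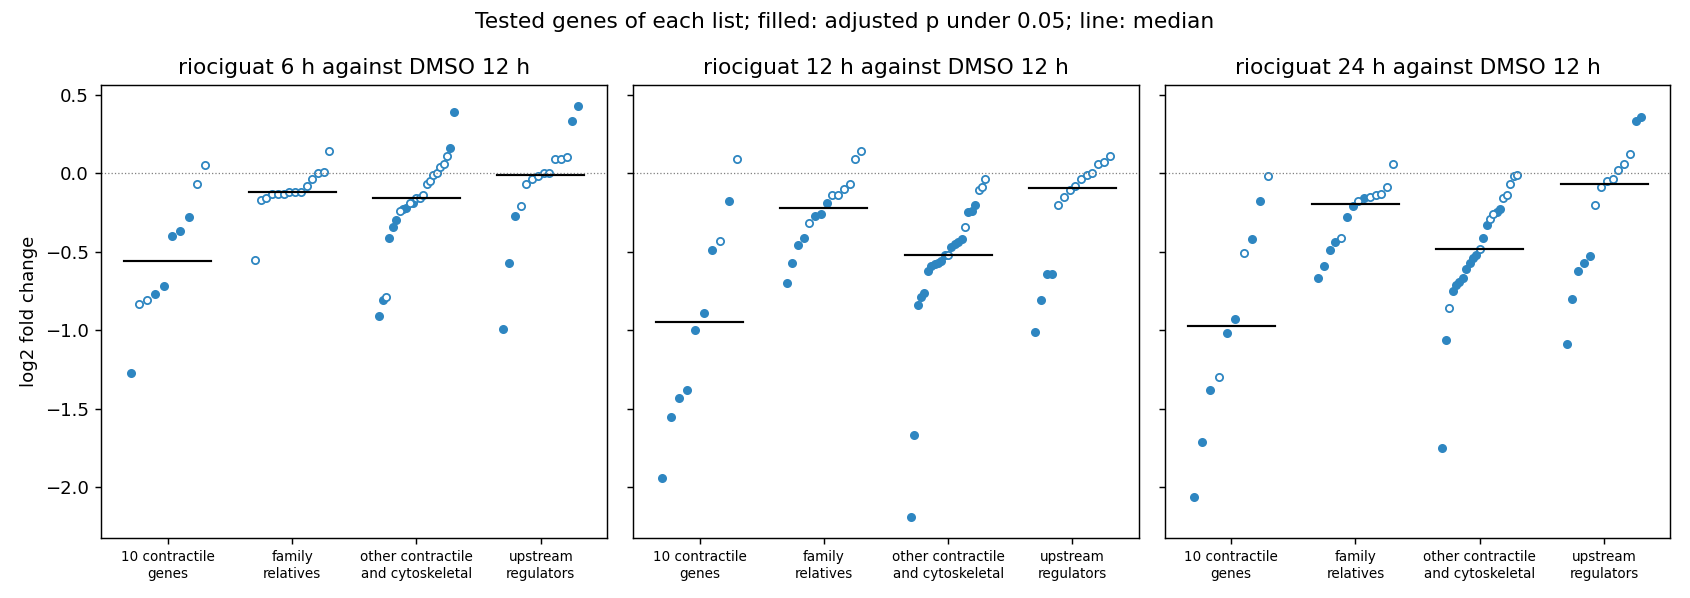
Fitted log2 fold change against DMSO 12 h of the tested genes of each list at the 3 exposures, with 3 libraries per group; filled points have an adjusted p under 0.05 and lines mark medians. At 6 h the family relatives lie near 0, with a median of -0.12, while the 10 contractile genes have a median of -0.56.

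The genes whose log2 CPM followed Acta2 most closely over the 12 libraries, among 10705 genes with a mean of at least 5 CPM, were Actn4 (Pearson r = 0.993), Actn1 (0.992), Amotl2 (0.986), Ddah1 (0.985) and Col4a1 (0.983). These values describe libraries that fall into 4 groups and mostly follow the differences between groups. Actn1 and Actn4 encode alpha-actinins, which cross-link actin filaments, and Ddah1 encodes an enzyme that removes methylated arginine. Their falls at 12 h were smaller than that of Acta2 in the fitted values, at 0.59 ± 0.05 for Actn4 and for Actn1 and 1.04 ± 0.08 for Ddah1 (SE).

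Markers of other contractile cells were mixed. The 11 markers of vascular smooth muscle and pericytes summed to 205 to 219 CPM in DMSO, 233 to 239 at 6 h, 221 to 231 at 12 h and 265 to 285 at 24 h. Of this list Rergl was at 0 in every library, Pln was at 0 in DMSO, and 3 genes had a mean under 1 CPM. Gene by gene, 6 of the 9 tested were lower than DMSO at 12 h, with a median log2 fold change of -0.33. By edgeR 2 fell (Mustn1 and Mcam) and 2 rose (Kcnj8 and Abcc9), against 3.48% and 2.18% of all tested genes. The sum is carried by abundant members such as Abcc9 and Rgs5. Summed hepatocyte markers lay at 991 to 1133 CPM at 6 h, 1098 to 1368 at 12 h and 565 to 785 at 24 h. Both the 6 h and the 24 h sums lay below those of DMSO, at 1167 to 1224 CPM, without overlap. Portal fibroblast and mesothelial markers were at 429 to 516 CPM in DMSO, 313 to 343 at 6 h and 421 to 471 at 12 h. Fbln2 carried most of that sum, at a mean of 384 CPM in DMSO and 252 CPM at 6 h. Of the 10 tested genes of this list, 2 fell at 6 h (Fbln2 and Lrrn4) and 0 rose by edgeR. Among all tested genes 5.24% fell and 4.48% rose. Endothelial markers were at 1635 to 1758 CPM at 6 h, 1446 to 1550 at 12 h and 1391 to 1440 at 24 h, the last 2 below DMSO without overlap. Eng, the most abundant of them, was at a mean of 771 CPM in DMSO and 692 CPM at 12 h. Of these 10 genes 1 fell and 0 rose at 12 h, against 3.48% and 2.18% of all tested genes (edgeR). At 24 h 3 fell and 1 rose, against 7.41% and 5.94%. Cholangiocyte markers were at 293 to 309 CPM in DMSO and, without overlap, at 251 to 270.4 at 6 h. The part of these shifts in the values of the contractile genes was not tested. Without DMSO replicate 1, the numbers of contractile genes that fell stayed at 8 at 12 h, 6 at 6 h and 7 at 24 h.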

How the data were processed

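RNA sequencing of total RNA gave a table of expected counts per gene, deposited by the authors as whole numbers for 53452 genes in 12 libraries, and rounding changed 0 values. Per the submitters' processing notes, the build was GRCm38 and the tools included Salmon, fastp, FastQC and DESeq2, given with no version or role. Salmon shares reads between similar transcripts, which makes near-identical actins and overlapping genes uncertain. The sources used here do not state strand handling. Positions come from GENCODE's GRCm38 annotation.

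Counts, filtered with filterByExpr and scaled by TMM, were fitted with the two-sided quasi-likelihood test of edgeR 4.0.16 (R 4.3.3) in 1 model over all libraries with group as the only term. P-values were Benjamini-Hochberg adjusted over 16036 genes in each comparison, and an adjusted p under 0.05 was a call, with no fold limit. Levels are CPM with TMM factors. A level per kb divides CPM by the length of all annotated exons of a gene. Ratios of related genes were tested with SciPy 1.17.1. The steps were tested on simulated counts.

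The 10 members and the gene and marker lists were chosen with earlier results of these data known. Named genes were all members, the 4 genes with the smallest p at 12 h of each list, 13 further genes given by name and the 5 genes most like Acta2 by Pearson correlation. Some results that this rule covers are not reported here. Alternatives were RLE factors, DESeq2 1.42.0, other filters, only the compared libraries, a replicate block, each library left out and another pseudocount.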

Additional observations from a re-analysis of the deposited data

Results flagged for a closer look

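Several contractile genes differed between riociguat groups, by edgeR's quasi-likelihood test of one group against the other (adjusted p under 0.05), with 3 libraries per group. Exposure time and the stage of culture at addition cannot be told apart in these differences. Between 6 and 12 h these genes were Acta2 (log2 difference -0.67), Tagln (-0.78), Myl9 (-0.70), Myh11 (-0.50), Cnn2 (-0.72) and Tpm1 (-0.23), all lower at 12 h, and Tagln2 (0.17), higher at 12 h. Between 6 and 24 h they were Acta2 (-0.79), Tagln (-0.94), Myl9 (-0.66), Myh11 (-0.54), Cnn2 (-0.74) and Tpm1 (-0.23), all lower at 24 h. Both comparisons share the 6 h libraries. Groups of 3 libraries were not screened for single outlying libraries.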

How the results depend on the processing

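Of 72 recounts of the contractile genes called, 70 stayed within 1.5 times the reported count, and the exceptions were both at 24 h against 12 h, where 1 gene was called without the low-count filter and 1 with DESeq2, against 0. Leaving out each library in turn gave 6 to 8 genes at 12 h against DMSO, 5 to 6 at 6 h, 6 to 7 at 24 h, 7 to 7 at 12 h against 6 h, 6 to 6 at 24 h against 6 h and 0 to 0 at 24 h against 12 h. Counts over all tested genes were more dependent on single libraries, with 510 to 1262 at 12 h (907 with all), 955 to 1852 at 6 h (1559), 1395 to 2566 at 24 h (2141), 596 to 836 at 12 h against 6 h (976) and 318 to 432 at 24 h against 12 h (494). Without the low-count filter that last count was 838, and the cause was not tested. Without DMSO replicate 1, all genes at 12 h split into 633 risen and 629 fallen in place of 349 and 558.

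The replicate numbers showed no clear pairing of the libraries. Deviations from group means correlated between -0.173 and 0.134 for libraries of the same number and between -0.109 and 0.126 for unlike numbers. A correlation over 0.1 was seen in 3 of 18 pairs of the same number and 1 of 36 others, and a weak pairing could go unseen with 3 libraries per group. The replicate block left the contractile genes called at 8, 6 and 7 at 12, 6 and 24 h. Small differences that were not called changed sign. Leaving out single libraries, Cnn1 at 12 against 6 h ran from -0.17 (without replicate 3 of the 12 h group) to 0.67, and at 24 against 12 h Cnn2 ran from -0.07 to 0.04, Myh11 from -0.08 to 0.05, Myl9 from -0.05 to 0.11 and Tpm1 from -0.02 to 0.03. Tagln2 at 24 h against DMSO ran from -0.04 to 0.00. Tpm1 at 24 against 12 h was 0.01 with RLE factors, 0.00 with the stricter filter and 0.01 with DESeq2. The Cnn1 to Cnn2 ratio went from 0.34 to 0.00 with a pseudocount of 0.1. Depth limits Cnn1 and Actg2 most, and the stricter filter or DESeq2 gave no value for them in some comparisons.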

Other observations

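Among the markers of vascular smooth muscle and pericytes, a pair of genes moved the other way from the contractile genes. They were chosen after their values were seen. Kcnj8 and Abcc9 encode the pore and the regulatory subunit of an ATP-sensitive potassium channel of pericytes and smooth muscle. Kcnj8 was at 16.3, 18.4 and 15.5 CPM in DMSO, 31.0, 29.9 and 25.5 CPM at 12 h and 43.0, 43.9 and 36.9 CPM at 24 h, with no overlap between these groups. It rose by 0.78 ± 0.11 at 12 h and 1.30 ± 0.11 at 24 h on the log2 scale (SE; edgeR adjusted p = 1.37e-04 and 2.45e-07). Abcc9 was at 65.1 ± 3.53 CPM in DMSO and 117 ± 3.58 CPM at 24 h (SD, n = 3) and rose by 0.31 ± 0.05 at 12 h and 0.84 ± 0.05 at 24 h (SE; edgeR adjusted p = 9.64e-04 and 1.10e-08). Neither was called at 6 h. At 24 h Rgs5 rose as well, by 0.31 ± 0.07 (SE; edgeR adjusted p = 0.00779). Of the 9 tested genes of this list 3 rose and 2 fell at 24 h, against 5.94% and 7.41% of all tested genes (edgeR). In the same list Mcam, an adhesion molecule of pericytes, rose by 0.42 ± 0.08 at 6 h and fell by 0.45 ± 0.08 at 12 h, so the list's sum hides members that moved in different directions.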
